A study of Homo sapiens with 22 samples.

Results

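The comparison described here asks which genes differ between H1299 cells with and without BRCA2 when GSK3 is inhibited and β-catenin is depleted at the same time. H1299 is an established human line from a non-small cell lung carcinoma. The members are the 6 RNA-seq libraries, of 22 in the series, whose labels give both GSK3i and siβ-catenin. All of these cells carried an shRNA against BRCA2 that doxycycline (DOX) switches on, were transfected with siRNA against β-catenin (siβ-catenin, which targets the CTNNB1 transcript), and received 250 nM of LY2090314, an inhibitor of both GSK3 kinases (GSK3i), for 24 h. BRCA2-deficient cells had also been kept in 2 µg/mL DOX for 3 days (n = 3 libraries), and BRCA2-proficient cells had not (n = 3 libraries). The samples include no cells that were given DOX but lacked the BRCA2 shRNA or carried another. The effects of DOX, of the shRNA itself and of BRCA2 loss therefore cannot be told apart. Whether the line is a single clone is not given in the sources used here. The labels do not say that replicates were separate cultures, but the study's figure legends describe the RNA-seq replicates as independent experiments. Each p-value measures the spread between these libraries.

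BRCA2 is needed to repair DNA breaks by homologous recombination and to protect stalled replication forks. GSK3 phosphorylates β-catenin and so marks it for degradation. Its inhibition lets β-catenin enter the nucleus, where it switches on WNT targets such as AXIN2 with TCF and LEF factors. GSK3 has many other substrates, and neither its activity nor β-catenin protein was measured in these libraries.

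Before any contrast, each library was placed on a scale set by the response to GSK3i in the control siRNA libraries, none of which belongs to the comparison. The scale is the mean log2 level of 1360 genes that rose with GSK3i in both BRCA2 backgrounds minus that of 1685 genes that fell, with untreated BRCA2-proficient cells at 0% and GSK3i-treated BRCA2-proficient cells at 100%. The BRCA2-deficient GSK3i+siβ-catenin libraries stood at 61.6%, 51.6% and 56.4%. BRCA2-proficient replicates 1 and 3 stood at 73.6% and 77.0%. The library labelled BRCA2-proficient replicate 2 stood at 0.818%, level with untreated cells, so its label is doubtful. Single genes chosen after their values were seen showed the same split. PDCD4, which encodes an inhibitor of translation initiation and is lowered by GSK3i, had 105, 1998 and 109 normalised counts in BRCA2-proficient replicates 1 to 3, and 143, 156 and 142 in the BRCA2-deficient libraries. AXIN2 had 145, 73.1 and 117 against 227, 192 and 117, while BRCA2-proficient cells with GSK3i and control siRNA had 1027 to 1153. The sample was kept under its label. The counts of calls are also given without it, as are the values of single genes where its absence changed the call or moved the fold by over 1.5 times. The libraries labelled BRCA2-proficient siβ-catenin replicates 2 and 3, used below for a second comparison, stood at 74.2% and 30.1% although their labels give no GSK3i. The first of them lay level with the BRCA2-proficient GSK3i+siβ-catenin replicates 1 and 3, so its label is open to question as well. The BRCA2-deficient siβ-catenin libraries stood between -21.1% and -1.04%.

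**Figure D1:**
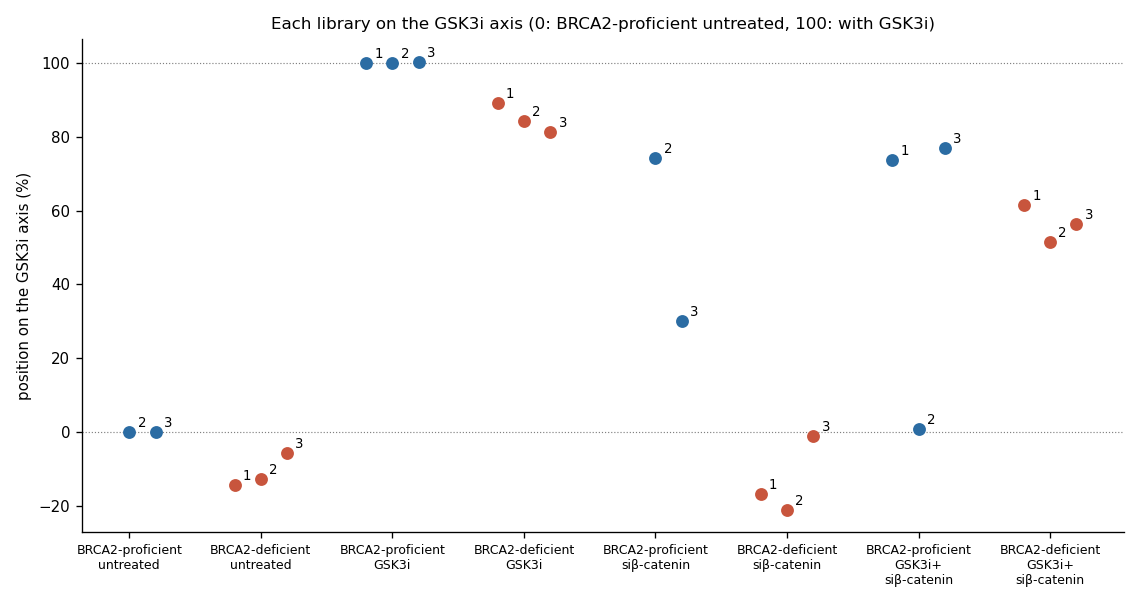
Position of each of the 22 libraries on the GSK3i scale, in percent of the way from untreated to GSK3i-treated BRCA2-proficient cells, with 1 point per library and 1 column per group. The library labelled BRCA2-proficient GSK3i+siβ-catenin replicate 2 lies at 0.818%, apart from the other 5 libraries of the comparison at 51.6% to 77.0%.

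The 6 libraries held 23.1 to 29.3 M counts (all 22: 18.9 to 29.3 M), so replicate spread and not depth set the error: chi-square per gene between replicates ran from 10.8 to 58.4. The epithelial keratins KRT8 and KRT18 were at 2848 to 5717 and 5501 to 8309 normalised counts, while EPCAM was low (8.06 to 22.2) and the mesenchymal VIM high (12636 to 26158). The leukocyte gene PTPRC was at 0 to 0.910 and the endothelial gene CDH5 at 0 to 2.89. Levels below are normalised counts (counts scaled by size factors that DESeq2 estimated from the 22 libraries), listed as BRCA2-proficient replicates 1, 2 and 3 against BRCA2-deficient replicates 1, 2 and 3. Changes are log2 fold changes of BRCA2-deficient over BRCA2-proficient cells ± SE, with Benjamini-Hochberg adjusted p from DESeq2. A gene was called, and is said to rise or fall, when its adjusted p was below 0.05 and its change beyond 0.5 on the log2 scale. Coordinates follow GRCh37, and a gene that does not encode a protein is named as such. The strand setting of the counting is not known, so counts of genes that overlap another on the opposite strand are uncertain. Among the genes looked up for such an overlap, it was found for BRCA2, CTNNB1, CRYM, SPOCD1, CEACAM19, ARHGAP27, SLC9A3, ENSG00000242539, ARL6IP6, BMP6, RAB6B, GBA2, ITGA10, CREB3L4, ZNF566-AS1, PPL, GPER1, MRE11, PRIM1, TYMS, MCM7, RRM2, NUF2, CCNA2, CDK6, E2F8, HLA-B, FTH1, IDI1, CYP51A1, FADS1, P4HA2, BNIP3L, MYC, LAMA3, VCAN, CCN2, PHLDA1, ETV4, ETV5, POLR1B, CTSA, NCAPG, PCK2, GINS1, ADM2, MTHFD2, KIF20A, HMMR, CCNB1, PLK1 and MMP9.

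The depleted transcripts came first. In BRCA2 (chromosome 13, 32889223 to 32974405, ENSG00000139618) there were 585, 633 and 669 normalised counts against 108, 147 and 167, a change of -2.16 ± 0.22 (adjusted p = 1.85e-19), and -2.16 ± 0.23 without the library labelled replicate 2 (adjusted p = 1.74e-17). The groups did not overlap, and replicate 2 lay with the other BRCA2-proficient libraries. CTNNB1 (ENSG00000168036, chromosome 3, 41236232 to 41301587) had 1906, 2185 and 1642 against 1821, 1645 and 977, a change of -0.38 ± 0.24 that did not pass the test (adjusted p = 0.393). Every library with control siRNA had 5206 to 8669, so CTNNB1 was low in all 6 libraries, replicate 2 included.

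Of 17046 genes tested, 1319 were called (7.74%), of which 576 rose in BRCA2-deficient cells (3.38%) and 743 fell (4.36%). Without the library labelled replicate 2, 806 of 17455 rose (4.62%) and 797 fell (4.57%), so the split moved from mostly lower to even. Both fits called 454 genes higher and 609 lower, which is 78.8% and 82.0% of the calls with all 6 libraries, and no gene was called in opposite directions. The groups did not overlap for 560 of the 576 higher and 738 of the 743 lower genes, against 2282 and 2154 of all genes tested. By edgeR's quasi-likelihood test, 483 genes were called. Leaving out BRCA2-proficient replicate 1 or 3 gave 846 and 812 calls, and leaving out BRCA2-deficient replicate 2 or 3 gave 748 and 835.

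**Figure D2:**
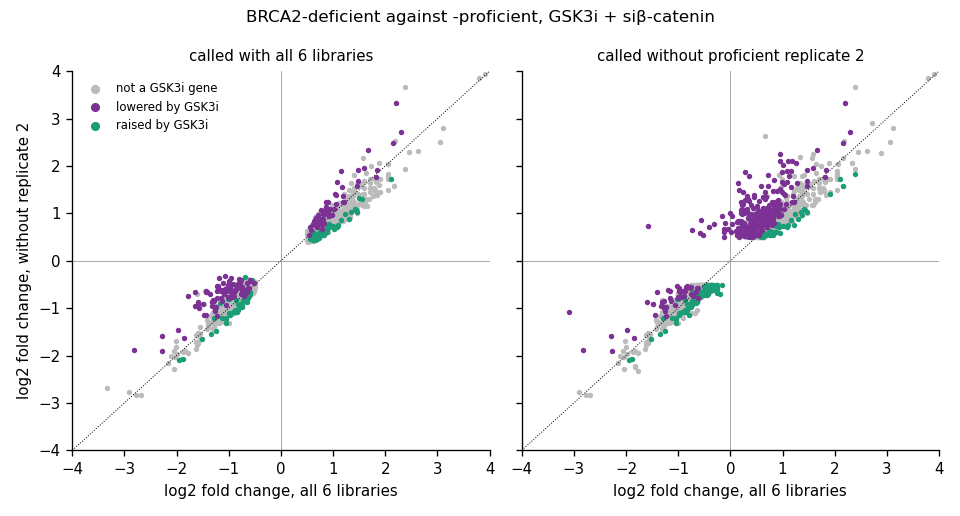
Log2 fold change of each gene with all 6 libraries (x axis) against the change without the library labelled BRCA2-proficient replicate 2 (y axis), for genes called with all 6 (left panel) and without it (right panel). Colours mark genes that GSK3i lowers or raises in control siRNA libraries: 59 of the lowered genes are called higher in the left panel and 272 in the right, and 46 of the raised genes are called lower in the left panel and 115 in the right.

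Genes are named below by size of change among those called in both fits, with a mean of at least 100 normalised counts and no overlap between the groups. GPNMB (chromosome 7, 23275586 to 23314727), a transmembrane glycoprotein of lysosomes and melanosomes, had 80.6, 29.8 and 52.8 normalised counts against 394, 719 and 302, a change of 3.11 ± 0.37 (adjusted p = 1.3e-13). APOE (chromosome 19, 45409048 to 45412650), the lipid carrier apolipoprotein E, had 521, 498 and 623 against 1513, 2298 and 1573, a change of 1.71 ± 0.21 (adjusted p = 1.4e-12). CPA4 (chromosome 7, 129932974 to 129964020), a secreted carboxypeptidase, had 933, 601 and 854 against 2979, 3287 and 2730, a change of 1.91 ± 0.20 (adjusted p = 9.48e-18). Replicate 2 was the lowest of the BRCA2-proficient libraries for all of these genes. COL14A1, a collagen associated with fibrils, had 74.5, 77.0 and 81.9 against 232, 440 and 306, a change of 2.06 ± 0.28 (adjusted p = 8.65e-11). HES4, a transcriptional repressor of the Notch-responsive HES family, had 110, 59.7 and 96.5 against 408, 316 and 381, a change of 2.05 ± 0.26 (adjusted p = 4.99e-12). CRYM, which binds thyroid hormone, had 127, 48.1 and 104 against 358, 361 and 441, a change of 2.05 ± 0.31 (adjusted p = 1.34e-08). Without replicate 2 the changes of COL14A1, HES4 and CRYM were 2.05, 1.83 and 1.74. The remaining genes of the 12 largest increases were the neuronal pentraxin receptor NPTXR at 1.83, the hyaluronan-linking HAPLN3 and SPOCD1 both at 1.80, the adhesion family member CEACAM19 and the GTPase activator ARHGAP27 both at 1.71, and the sodium-proton exchanger SLC9A3 at 1.60.

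The largest decreases were named by the same rule. YAP1 (chromosome 11, 101981178 to 102104155), the transcriptional co-activator of the Hippo pathway, had 3258, 3501 and 3567 normalised counts against 702, 988 and 844, a change of -2.03 ± 0.18 (adjusted p = 1.1e-25). CCN1 and CCN2, secreted matrix proteins that YAP1 is known to activate, fell by 0.71 (adjusted p = 0.00464) and 1.17 (adjusted p = 0.000892) on the log2 scale. They were set beside YAP1 after their values were seen, and a link was not tested. CCN2 changed by -0.69 with BRCA2 depletion in untreated cells (adjusted p = 0.0471). Under GSK3i it changed by -0.54 (adjusted p = 0.198) and under siβ-catenin by -0.67 (adjusted p = 0.135). HTATSF1 (chromosome X, 135579238 to 135594505), an RNA-binding protein of splicing and transcription elongation, had 3895, 4680 and 3761 against 1035, 1022 and 806, a change of -2.12 ± 0.18 (adjusted p = 1.18e-27). DCLRE1A (chromosome 10, 115594484 to 115614142), a nuclease of interstrand crosslink repair, had 691, 755 and 752 against 177, 170 and 208, a change of -1.99 ± 0.19 (adjusted p = 1.11e-22). YAP1, HTATSF1 and DCLRE1A left wide gaps between the groups, and replicate 2 lay with the other BRCA2-proficient libraries. BMP6, a secreted bone morphogenetic protein, had 221, 385 and 310 against 80.0, 83.6 and 66.3, a change of -2.00 ± 0.27 (adjusted p = 7.56e-11). Without replicate 2 the changes of YAP1 and BMP6 were -2.03 and -1.81. ARL6IP6 and TMEM156, both membrane proteins, each fell by 2.05 on the log2 scale.

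For other large decreases, the size rested on the doubtful library. ETV1 (chromosome 7, 13930854 to 14031050), an ETS transcription factor downstream of ERK signalling, had 293, 1035 and 263 normalised counts against 80.0, 74.6 and 72.3. Its change was -2.82 ± 0.43 with all 6 libraries (adjusted p = 1.1e-08) and -1.89 ± 0.24 without replicate 2 (adjusted p = 1.42e-12). FAM117B moved from -2.28 to -1.59 and CDK15, a little-studied kinase, from -1.98 to -1.45. GSK3i lowers ETV1, FAM117B and CDK15, and in each of them replicate 2 was the highest of the 6 libraries. The lncRNA ENSG00000242539 had a change of -2.78 and ENSG00000269728, which has no symbol or position in the annotation used, a change of -2.69. For all 24 of these genes, BRCA2 included, the call was kept by edgeR (adjusted p from 0.00229 to 0.0317), without each library in turn and in a test against a change of 0.5. They were chosen as the largest changes without overlap that were also called without replicate 2. That outcome was therefore largely set by the choice and is not separate support.

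**Figure D3:**
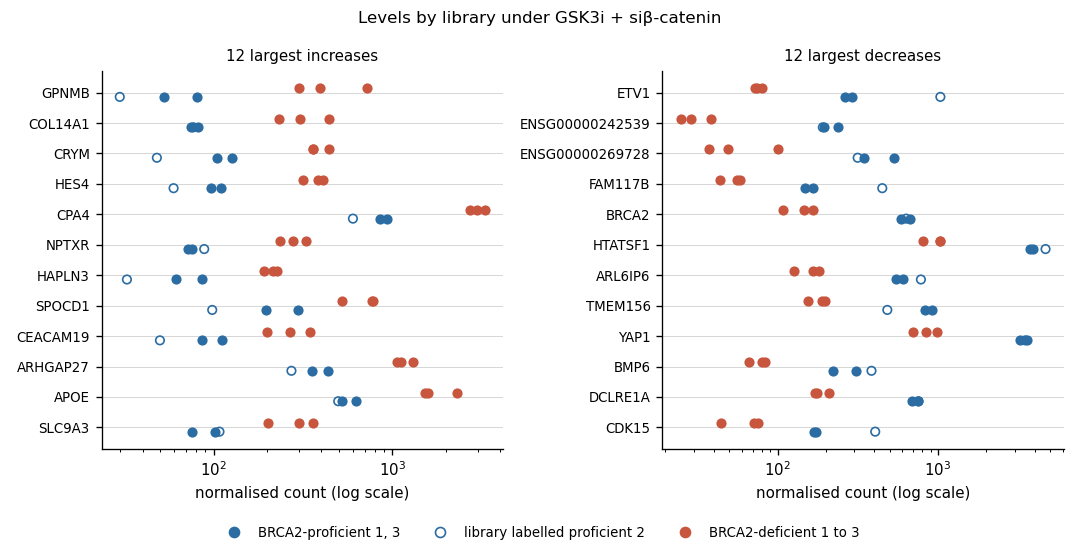
Normalised counts, on a log axis, in each of the 6 libraries for the 12 named genes that rose most and the 12 that fell most, with BRCA2-proficient and BRCA2-deficient libraries in different colours and the library labelled BRCA2-proficient replicate 2 as an open circle. The genes were chosen for groups that do not overlap. In ETV1, FAM117B and CDK15 the open circle stands far to the right of the other BRCA2-proficient libraries.

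Genes of mitotic entry, the spindle and cytokinesis fell together. Of 50 tested, 45 fell (4.36% of all genes did) and none rose, with a median change of -0.81 against -0.01 over all genes, and 49 had no overlap between the groups (2154 of all 17046 genes were lower without overlap). The mean log2 level of the list was 11.37, 11.60 and 11.42 in the BRCA2-proficient libraries and 10.56, 10.63 and 10.83 in the BRCA2-deficient ones. Without replicate 2, 42 fell with a median of -0.74, and edgeR called 28. In bulk RNA, fewer cells in mitosis and less of each transcript per cell cannot be told apart.

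The members span the steps of division. At the kinetochore, NUF2 (chromosome 1, 163236366 to 163325554), a subunit of the NDC80 complex that holds microtubules, had 1159, 1399 and 1094 normalised counts against 521, 443 and 513, a change of -1.31 ± 0.18 (adjusted p = 2.67e-10). Its partner NDC80 fell by 1.19, and the checkpoint protein MAD2L1 had 1199, 1210 and 1162 against 647, 548 and 539, a change of -1.05 ± 0.17 (adjusted p = 5.35e-08). CENPA, the centromeric histone, fell by 0.88 and CENPE, a kinetochore motor, by 0.86. Of the drivers of mitotic entry, CDK1 fell by 0.88, its cyclins CCNB1 by 0.70 and CCNB2 by 0.76, and PLK1 by 0.89 on the log2 scale. CCNA2 (cyclin A2) had 3300, 3987 and 3585 against 1766, 1715 and 2123, a change of -0.96 ± 0.17 (adjusted p = 2.99e-06). CDC20, the activator of the anaphase-promoting complex, had 6770, 6774 and 6923 against 4120, 3551 and 3883, a change of -0.83 ± 0.15 (adjusted p = 1.96e-06). For CDC20 and MAD2L1 the BRCA2-proficient libraries were almost level, replicate 2 included. Of the spindle and midzone motors, KIF20A fell by 1.26, KIF11 by 0.89 and KIF2C by 0.80, and ECT2, which activates RhoA for cytokinesis, by 0.99. FOXM1, the transcription factor of many of these genes, fell by 0.59 (adjusted p = 0.0112). The proliferation antigen MKI67 lay at the threshold (-0.68 ± 0.24, adjusted p = 0.0499) and was not called without replicate 2 (adjusted p = 0.0986). The members not called were BUB1B (-0.53), BIRC5 (-0.45), ANLN (-0.38), BUB3 (-0.35) and the CDC25B phosphatase (-0.05). BUB1B and BIRC5 were called without replicate 2 (adjusted p = 0.0401 and 0.0499).

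Promoters of many such genes carry the cell cycle genes homology region, known as the site through which the DREAM and MuvB complexes act. Its letters TTTGAA, on either strand, were looked for from 250 bases before to 50 after each start in RefSeq's GRCh38.p14 promoters, a search chosen after the changes were seen. They were present in 29 of the 42 members with a promoter entry (69.0%) and in 27 of the 39 called members with one (69.2%), against 9.75% of the 11603 promoters of genes tested and 15.4% of all 27303. Of the 29 members, 19 had a match wholly within the 150 bases before the start, and 5 only after it. A match describes letters and not a bound site. To show where it falls, the 150 bases before the start of 5 called members follow, 5′ to 3′ on the plus strand, with the match in capitals (TTCAAA is its reverse complement, and HMMR has 2 adjoining matches). The windows are chr1:43358831-43358980 for CDC20, chr2:26785906-26786055 for CENPA, chr10:92592980-92593129 for KIF11, chr3:172750576-172750725 for ECT2 and chr5:163460482-163460631 for HMMR, a spindle-associated receptor of hyaluronan.
CDC20: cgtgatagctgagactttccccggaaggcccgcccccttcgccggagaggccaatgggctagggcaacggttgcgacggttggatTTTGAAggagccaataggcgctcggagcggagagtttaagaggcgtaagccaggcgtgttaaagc
CENPA: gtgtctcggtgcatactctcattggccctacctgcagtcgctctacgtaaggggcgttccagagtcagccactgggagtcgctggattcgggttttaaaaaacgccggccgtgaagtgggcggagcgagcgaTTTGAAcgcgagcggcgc
KIF11: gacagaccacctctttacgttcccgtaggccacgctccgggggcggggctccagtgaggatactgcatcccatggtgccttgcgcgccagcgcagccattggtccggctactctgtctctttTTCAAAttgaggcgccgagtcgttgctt
ECT2: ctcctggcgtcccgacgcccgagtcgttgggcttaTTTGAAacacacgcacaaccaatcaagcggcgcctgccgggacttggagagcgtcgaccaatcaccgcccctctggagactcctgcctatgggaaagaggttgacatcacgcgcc
HMMR: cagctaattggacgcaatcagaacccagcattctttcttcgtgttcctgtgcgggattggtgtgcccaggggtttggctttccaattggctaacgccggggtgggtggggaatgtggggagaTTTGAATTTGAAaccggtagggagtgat

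Of 57 genes of replication licensing and the fork, 21 fell and 1 rose, with a median of -0.43 and a negative change in 54. Over all genes tested 3.38% rose, 4.36% fell and 8704 of 17046 changes were negative. Without replicate 2, 26 fell and 1 rose, with a median of -0.48. Leaving out BRCA2-deficient replicate 2 or BRCA2-proficient replicate 3 left 11 lower, and BRCA2-proficient replicate 1 left 13. PRIM1 (chromosome 12, 57124222 to 57146158), the catalytic subunit of primase, had 810, 814 and 755 normalised counts against 384, 379 and 396, a change of -1.04 ± 0.17 (adjusted p = 6.48e-08). Both groups were tight, and PRIM1 was about as low in each BRCA2-deficient library. Of the suppliers of nucleotides, TYMS (thymidylate synthase) had 4740, 4578 and 4390 against 2716, 2306 and 2351, a change of -0.90 ± 0.15 (adjusted p = 5.83e-07), and RRM2 (ribonucleotide reductase) had 7089, 5690 and 7147 against 3893, 3459 and 4206, a change of -0.79 ± 0.17 (adjusted p = 0.000244). In the MCM2-7 helicase, MCM7 fell by 0.83, MCM6 by 0.68, MCM5 by 0.64 and MCM2 by 0.55 on the log2 scale, and the initiation kinase CDC7 by 0.71. CCNE1, cyclin E1, which drives entry into S phase, rose instead by 0.60 ± 0.19 (adjusted p = 0.0227), from 288 to 341 in the BRCA2-proficient to 440 to 542 in the BRCA2-deficient libraries. CDC6, ORC2, RFC3, RFC5, MCM10 and CHAF1B were among the genes called only without replicate 2, and LIG1, MCM2, CDC45 and POLA2 were called only with all 6 libraries. CDC6, which loads the helicase, had 2251, 1473 and 2158 against 1498, 1452 and 1314, and changed by -0.47 ± 0.20 with all 6 libraries (adjusted p = 0.132) and by -0.65 without replicate 2 (adjusted p = 0.000542).

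In the homologous recombination and Fanconi list, which leaves out BRCA2, 6 of 35 genes fell (4.36% of all genes did) and none rose. All 35 changes were negative (8704 of all 17046 were), with a median of -0.34, and 8 fell without replicate 2. BARD1 (chromosome 2, 215590370 to 215674407), the partner of BRCA1 in its ubiquitin ligase, had 484, 542 and 579 normalised counts against 199, 221 and 246, a change of -1.27 ± 0.20 (adjusted p = 2.1e-08). MRE11, the nuclease that begins resection, fell by 0.91 (adjusted p = 0.00263), and by 0.72 without replicate 2 (adjusted p = 0.00951). The helicase BLM fell by 0.73, and the crosslink repair genes FANCG and FANCD2 by 0.64 and 0.63. BRCA1 did not pass the test (-0.57 ± 0.21, adjusted p = 0.0581).

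Of 24 CDK inhibitors and G1 regulators, 4 fell (4.36% of all genes did) and none rose, with a median of -0.15. Without replicate 2 of the BRCA2-proficient cells 5 fell, and 2 without that of the BRCA2-deficient cells. CDK6 (chromosome 7, 92234235 to 92465887), a cyclin D-dependent kinase of G1, had 6134, 7295 and 6613 normalised counts against 1775, 2299 and 2614, a change of -1.59 ± 0.19 (adjusted p = 1.32e-13). The repressor E2F8 fell by 1.22 (adjusted p = 0.000149) and the activator E2F2 by 0.71 (adjusted p = 0.0123). CDKN2C, which inhibits CDK4 and CDK6, had 753, 1532 and 763 against 508, 526 and 514, so its fall of 0.98 became 0.57 without replicate 2. CDKN1A, which encodes p21 and is named here because the study concerns it, lay between 841 and 1093 in the BRCA2-proficient and between 962 and 1281 in the BRCA2-deficient libraries, a change of 0.18 ± 0.20 (adjusted p = 0.697), and CCND1 changed by -0.32 ± 0.20 (adjusted p = 0.386).

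Lysosomal genes moved the other way. Of 32 tested, 8 rose (3.38% of all genes did) and none fell, with a median of 0.33. Without replicate 2, 10 rose, and edgeR called 3. The count was 5 without BRCA2-proficient replicate 3 or any 1 of the BRCA2-deficient libraries. CTSA (chromosome 20, 44518783 to 44527588), a lysosomal carboxypeptidase that protects neuraminidase and β-galactosidase, had 8235, 7018 and 7830 normalised counts against 15010, 13079 and 12167, a change of 0.80 ± 0.16 (adjusted p = 5.31e-05). NEU1, the neuraminidase itself, had 5467, 2543 and 5338 against 10119, 9017 and 10065, a change of 1.12 ± 0.26 (adjusted p = 0.000767). Replicate 2 was the lowest library for NEU1, and without it the change was 0.84. The lysosomal calcium channel MCOLN1 rose by 0.83 (adjusted p = 0.00724). Of the proton pump, ATP6V0D1 rose by 0.74 and the accessory subunit ATP6AP1 by 0.63. Of the hydrolases, CTSB rose by 0.56 and HEXA by 0.53, and the sterol carrier NPC2 rose by 0.55. CTSB and NPC2 were not called without replicate 2 (adjusted p = 0.054 and 0.0797). TFEB, a transcription factor of lysosomal genes, lay between 163 and 234 against 276 to 325 and did not pass the test (0.57 ± 0.22, adjusted p = 0.0935).

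The extracellular matrix list moved in both directions, with 9 of 37 tested higher and 4 lower (10 and 4 without replicate 2). Of all genes tested 3.38% rose and 4.36% fell. COL6A1, a chain of collagen VI, had 4104, 5170 and 4147 normalised counts against 8101, 9082 and 8820, a change of 0.95 ± 0.17 (adjusted p = 1.85e-06), and COL6A2 rose by 0.84. LAMA3, a chain of laminin 332, had 277, 214 and 289 against 418, 862 and 533, a change of 1.21 ± 0.28 (adjusted p = 0.000553). The gelatinase MMP9 rose by 1.31, the anchoring fibril collagen COL7A1 by 1.08, fibrillin FBN1 by 0.91 and collagen COL1A1 by 0.88. VCAN, the proteoglycan versican, had 400, 276 and 578 against 135, 208 and 186, a change of -1.25 ± 0.29 (adjusted p = 0.000796). CCN1 and CCN2 of this list also fell, as given above. By edgeR 3 genes of the list rose and 0 fell, and 4 rose without BRCA2-deficient replicate 2.

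Of 28 AP-1 and immediate-early genes, 6 fell and 2 rose (0 rose without BRCA2-deficient replicate 2 or 3). Of all genes tested 4.36% fell and 3.38% rose. Without the doubtful library 5 fell and 2 rose. Those that fell include known outputs of ERK signalling, such as the PEA3 factors ETV4 (-0.99 ± 0.23, adjusted p = 0.000815) and ETV5 (-0.87 ± 0.21, adjusted p = 0.00102), the ERK phosphatase DUSP6 (-1.59 ± 0.39, adjusted p = 0.00185) and the feedback inhibitor SPRY4 (-0.89 ± 0.27, adjusted p = 0.0179). DUSP6 had 324, 1067 and 402 normalised counts against 126, 239 and 232, and without replicate 2 its change was -0.88 (adjusted p = 0.0243). SPRY4 was not called without replicate 2 (adjusted p = 0.0654). PHLDA1 had 6370, 6751 and 6061 normalised counts against 4322, 3849 and 3219, a change of -0.76 ± 0.17 (adjusted p = 0.000345). The phosphatase genes that rose were DUSP1 by 0.58 and DUSP2 by 1.19.

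WNT targets and feedback genes had 2 of 15 lower (4.36% of all genes fell) and none higher, with a median of -0.27. The counts and median were the same without replicate 2. MYC had 3640, 4416 and 3651 normalised counts against 2568, 2192 and 2488, a change of -0.70 ± 0.17 (adjusted p = 0.00106), and -0.61 without replicate 2 (adjusted p = 0.00136). WIF1, a secreted WNT antagonist, had 85.6 to 112 normalised counts against 36.9 to 64.5, a change of -1.07 ± 0.32 (adjusted p = 0.0162), and -1.01 without replicate 2 (adjusted p = 0.0436). AXIN2 (0.67 ± 0.33, adjusted p = 0.22) and LEF1 (-0.54 ± 0.34, adjusted p = 0.387) did not pass the test.

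The ATF4 list, genes of amino acid supply and the integrated stress response, depended on single libraries. Of 39 tested, 6 fell with all 6 libraries (4.36% of all genes did), but 2 fell and 1 rose without replicate 2. The count was 12 without BRCA2-proficient replicate 3, and 3, 1 and 2 without BRCA2-deficient replicates 1, 2 and 3. The mean log2 level of the list was 10.86, 11.28 and 10.51 against 10.60, 10.55 and 10.51, so replicate 2 was highest and BRCA2-proficient replicate 3 was no higher than the BRCA2-deficient libraries. PSAT1, an enzyme of serine synthesis, had 5414, 7120 and 4370 normalised counts against 3275, 2775 and 2448, a change of -1.0 ± 0.21 (adjusted p = 0.0002), and -0.80 without replicate 2 (adjusted p = 0.000374). SESN2, an inhibitor of mTORC1, had 1569, 1820 and 841 against 624, 658 and 813, a change of -1.02 ± 0.27 (adjusted p = 0.00449). Only PSAT1 and SESN2 fell in both fits. CHAC1, which degrades glutathione, had 910, 992 and 290 against 315, 287 and 376. Its call (-1.17 ± 0.36, adjusted p = 0.0169) was lost without replicate 2 (adjusted p = 0.397) and with the replicate number as a block (adjusted p = 0.355). CTH, MTHFD2 and SLC7A5 lost their calls without replicate 2, and NUPR1 gained one (1.80, adjusted p = 1.22e-05).

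In the remaining groups few genes were called. Of 26 NRF2 targets, 3 rose (3.38% of all genes did) and none fell. Without replicate 2, 5 rose, and 1 without BRCA2-deficient replicate 2. HMOX1, which breaks down heme, had 2288, 1015 and 2757 normalised counts against 5255, 4390 and 5497, a change of 1.32 ± 0.30 (adjusted p = 0.000464) that was 0.99 without replicate 2. The ferritin chain FTH1, which has many near-identical copies, rose by 0.57 and AKR1B10, a reductase at 17.1, 0.962 and 15.5 against 48.0, 49.4 and 42.2, by 2.05. Of 32 sterol and fatty acid synthesis genes, 3 fell, beside 4.36% of all genes (1 without BRCA2-proficient replicate 3). They were IDI1, an isoprenoid isomerase with 2531, 3657 and 2298 against 978, 911 and 479 (-1.85 ± 0.28, adjusted p = 5.7e-09), the sterol demethylase CYP51A1 (-0.89) and the desaturase FADS1 (-0.77).

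All 13 mtDNA-encoded genes had a positive change, with a median of 0.48, but only MT-ND6 (1.04 ± 0.26, adjusted p = 0.002) and MT-CYB (0.72 ± 0.24, adjusted p = 0.0292) were called, and MT-CYB not without replicate 2 (adjusted p = 0.0569). Of all genes tested 3.38% rose, and 8704 of 17046 changes were negative. Without BRCA2-proficient replicate 3 or BRCA2-deficient replicate 1, 7 of the 13 were called. The share of all counts from mitochondrial genes was 0.807%, 0.908% and 1.31% in the BRCA2-proficient and 1.11%, 1.80% and 1.78% in the BRCA2-deficient libraries, and its part in these changes was not tested. None of the 76 nuclear genes of oxidative phosphorylation was called by DESeq2 or edgeR, and their median was 0.11. Of 37 interferon-stimulated genes, IFI44L (1.78 ± 0.48, adjusted p = 0.00534) and HLA-B (0.51 ± 0.18, adjusted p = 0.0467) rose and SAMD9 fell (-1.01 ± 0.28, adjusted p = 0.00657). Of all genes tested 3.38% rose and 4.36% fell. HLA-B shares sequence with other class I genes, so its count is uncertain, and its change was 0.499 with the block. Leaving out BRCA2-deficient replicate 2 left 0 genes higher, and leaving out replicate 2 of the BRCA2-proficient cells 5. The median of the list was -0.01 with all 6 libraries and 0.29 without replicate 2, and GSK3i lowers 17 of its genes. In the NF-kB list BIRC3 fell by 0.59, in the glycolysis and hypoxia list P4HA2 rose by 0.81 and BNIP3L fell by 1.11, and in the ribosome biogenesis list the RNA polymerase I subunit POLR1B fell by 1.05, with 3 more genes without replicate 2. BNIP3L, with 982, 2468 and 845 normalised counts against 740, 666 and 593, was not called without replicate 2 (adjusted p = 0.0685).

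The calls that changed without replicate 2 are set out by each gene's response to GSK3i. Of 1660 tested genes that GSK3i lowers, 59 rose and 95 fell with all 6 libraries, but 272 rose and 45 fell without replicate 2. Of 1358 that GSK3i raises, 47 rose and 46 fell, but 38 rose and 115 fell without it. The 14028 genes in neither set gave 470 and 602, then 495 and 636. Among the former, FBXO32, a ubiquitin ligase of muscle atrophy, had 144, 495 and 97.4 normalised counts against 621, 528 and 433. Its change was 1.10 ± 0.71 (adjusted p = 0.399) and became 2.11 ± 0.25 without replicate 2 (adjusted p = 1.4e-14). PPL, the desmosomal protein periplakin, had 186, 672 and 170 against 612, 1126 and 593, and GPER1, an oestrogen receptor of the membrane, had 114, 389 and 102 against 376, 505 and 319. PPL changed by 2.11 and GPER1 by 1.88 without replicate 2, and both passed the test with all 6 libraries only when the replicate number was a block (adjusted p = 1.68e-06 and 0.000481).

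Of the genes that GSK3i raises, the HSP90 co-chaperone CHORDC1 had 2587, 991 and 2893 normalised counts against 920, 1210 and 1624, and fell only without replicate 2 (-1.14 ± 0.23, adjusted p = 3.99e-05). RABGGTB, which prenylates Rab proteins, and TRIP13, a meiotic and checkpoint ATPase, also fell only without it (-0.85 and -0.71), or with the block (adjusted p = 0.0322 and 0.0218). In the opposite class, the collagen-binding integrin ITGA10 had 182, 451 and 127 against 66.0, 131 and 45.9, and lost its call (-1.66 ± 0.46, adjusted p = 0.0067) without replicate 2 (-0.95 ± 0.40, adjusted p = 0.115). CREB3L4 (-1.78 to -0.74) and the antisense lncRNA ZNF566-AS1 (-1.36 to -0.70) did so too. STK40, RAB6B and GBA2 lost their calls because the change moved to the limit of 0.5 (0.47, 0.49 and 0.50), with adjusted p still between 0.0103 and 0.0176.

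BRCA2 depletion was also measured in 3 other settings, on libraries that the present comparison does not share. In untreated cells (3 against 2 libraries) 2.77% of genes rose and 4.14% fell, under GSK3i with control siRNA (3 against 3) 3.76% and 3.05%, and under siβ-catenin without GSK3i (3 against 2) 13.6% and 13.8%. The last figures rest on the BRCA2-proficient siβ-catenin libraries that stood apart on the GSK3i scale. Of the calls of the present comparison, 588 were also called in the same direction in untreated cells, which is 44.7% of these calls and 49.6% of those in untreated cells, and none in the opposite direction. Under GSK3i alone 637 were shared (48.4% and 57.4%), with none opposite. Under siβ-catenin alone 925 were shared (70.2% and 19.2%) and 2 were opposite. Without replicate 2 these counts were 671, 808 and 1331. Across genes the changes correlated with r = 0.59, 0.68 and 0.49, and with r = 0.61, 0.74 and 0.72 without replicate 2.

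In all 4 settings 129 genes rose and 230 fell, of 15950 tested throughout. Without replicate 2, 199 rose and 242 fell, 349 of them among the 359 genes above. CPA4 rose by 2.47 untreated, 1.83 under GSK3i and 2.38 under siβ-catenin, beside 1.91 under both. APOE rose by 1.22, 1.64 and 1.81, and NPTXR by 1.88, 2.03 and 2.60. YAP1 fell by 2.00, 1.72 and 2.11, HTATSF1 by 1.36, 1.57 and 1.84, BARD1 by 1.51, 1.17 and 1.77, and CDK6 by 1.44, 1.37 and 1.39 in the same order. GPNMB, the largest increase here, rose under GSK3i alone by 2.87 (adjusted p = 1.85e-21), while its changes in untreated cells (0.81, adjusted p = 0.407) and under siβ-catenin alone (1.07, adjusted p = 0.545) did not pass the test. MYC, lower here, changed by -0.01 untreated, -0.23 under GSK3i and 0.17 under siβ-catenin, none of which passed the test (adjusted p = 0.987, 0.517 and 0.667). Neither GPNMB nor MYC was called in the interaction tests below, and no test was made against untreated cells.

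**Figure D4:**
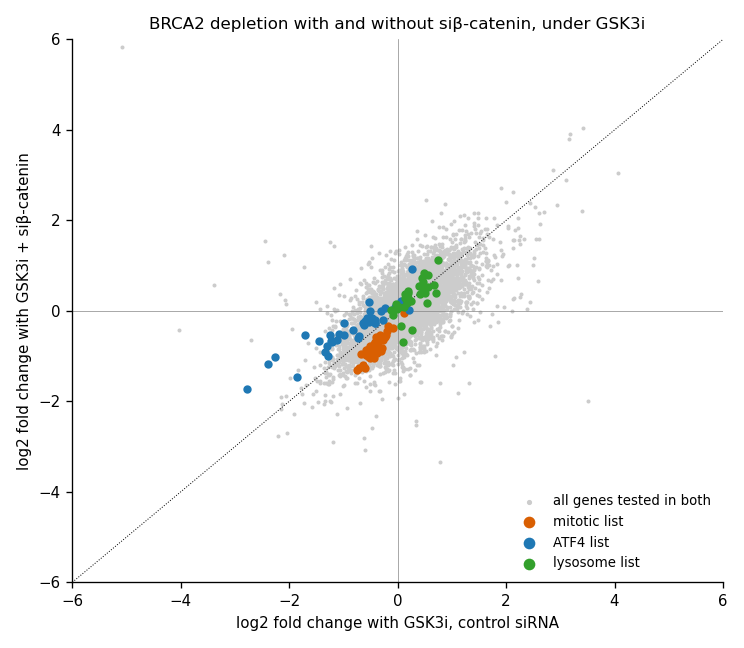
Log2 fold change with BRCA2 depletion under GSK3i and control siRNA (x axis) against the change under GSK3i and siβ-catenin (y axis), 1 point per gene, with the mitotic, ATF4 and lysosome lists in colour. The mitotic genes lie lower on the y axis (median -0.81) than on the x axis (-0.42), and the ATF4 genes the reverse (-0.28 and -0.65).

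The counts of each list in the other settings are set beside those here as descriptions. Of all genes tested, 4.14% fell in untreated cells, 3.05% under GSK3i and 13.8% under siβ-catenin, beside 4.36% here. In the same order 2.77%, 3.76% and 13.6% rose, beside 3.38% here. Of the 50 mitotic genes, 44 fell in untreated cells (median -0.95), 13 under GSK3i alone (-0.42) and 49 under siβ-catenin alone (-1.39), beside 45 here (-0.81). Replication genes gave 29 of 57 lower in untreated cells, 3 under GSK3i and 53 under siβ-catenin, beside 21 here. Genes of the ATF4 list fell in untreated cells for 23 of 39 (median -0.72) and under GSK3i alone for 24 (-0.65), beside 6 here (-0.28). Under siβ-catenin alone 14 fell (-1.07), and 3 when the BRCA2-proficient siβ-catenin library at 74.2% of the GSK3i scale was left out (-0.05), which leaves 1 BRCA2-proficient library. Lysosomal genes rose in each setting, for 5, 6 and 13 genes beside 8 here. Differences between settings were tested gene by gene, in the interactions that follow.

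**Figure D5:**
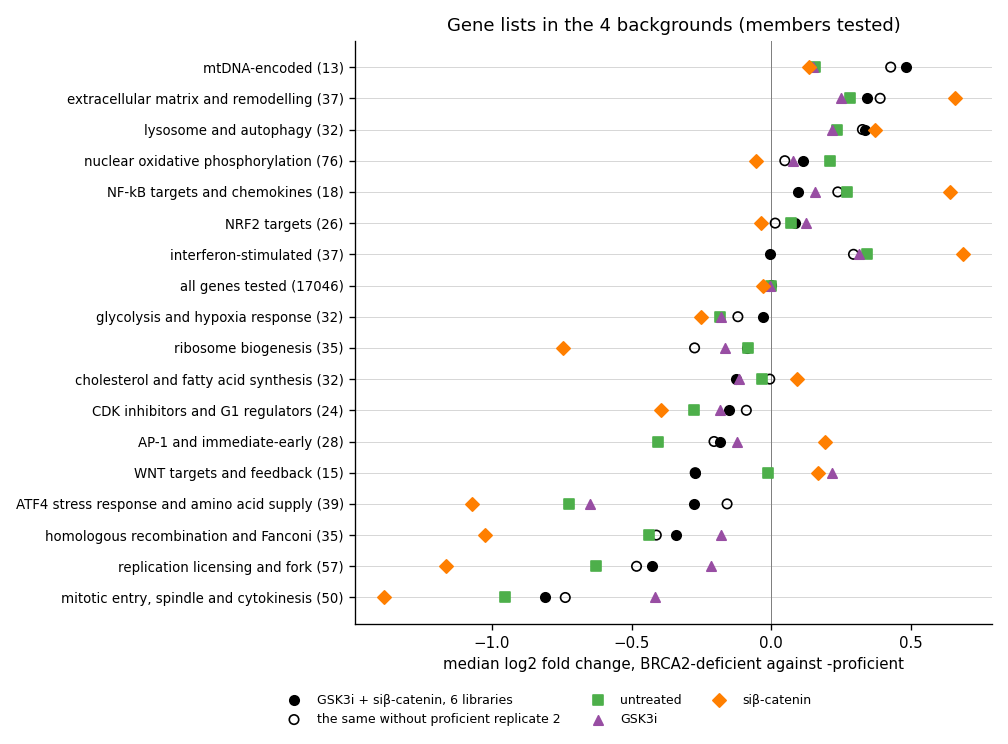
Median log2 fold change with BRCA2 depletion of each of the 17 gene lists in untreated cells, under GSK3i, under siβ-catenin and under both. The mitotic list is negative in all 4 settings (-0.95, -0.42, -1.39 and -0.81) and the lysosome list positive in all 4 (0.23, 0.22, 0.37 and 0.33).

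The question of whether BRCA2 depletion acts differently once β-catenin is depleted under GSK3i was put to an interaction term over 12 libraries. DESeq2 called 1 of 17544 genes (0.0057%), ENSG00000225871, a processed pseudogene on chromosome 1 (147907215 to 147909036) that can share reads with its parent gene. It had 40.1, 30.9 and 34.9 normalised counts in the BRCA2-deficient GSK3i libraries and at most 5.27 in each library of the other groups compared. At an unadjusted p below 0.05 there were 326 genes (1.86%), and edgeR called 0 (324 unadjusted). Leaving out 1 library at a time gave from 0 to 11 calls. The block on replicate number called 4 genes, among them VEGFA, the vascular growth factor, and NCAPG, a subunit of condensin. NCAPG fell by 0.96 with both treatments and changed by -0.32 under GSK3i alone (adjusted p = 0.111).

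Without the library labelled replicate 2, 11 genes were called, and 10 of them were not called with all 12 libraries. They included 3 genes of the ATF4 list. SESN2 had an interaction of 1.47 ± 0.33, PCK2, the mitochondrial PEP carboxykinase, 1.57 ± 0.33 (both adjusted p = 0.027) and TRIB3, a pseudokinase that restrains ATF4, 1.66 ± 0.39 (adjusted p = 0.0399). SESN2 had 2611, 3355 and 2738 normalised counts in BRCA2-proficient cells with GSK3i and 676, 565 and 582 in BRCA2-deficient ones, against 1569, 1820 and 841 and 624, 658 and 813 with siβ-catenin added. PCK2 had 966, 1666 and 1098 against 662, 515 and 602 with GSK3i, and 532, 1814 and 360 against 654, 676 and 569 with both. In PCK2 replicate 2 stood above BRCA2-proficient cells with GSK3i and also above untreated ones, which had 872 and 1292. The amino acid transporter SLC1A4 (1.08 ± 0.24, adjusted p = 0.027), the peptide hormone ADM2 (1.71 ± 0.39, adjusted p = 0.0287), FBLL1 and GABRG1 went the same way. In the other direction went the replication genes RRM2 (-0.65 ± 0.14, adjusted p = 0.027), GINS1 (-0.79 ± 0.17 in the same fit, adjusted p = 0.027) and PRIM1 (-0.71 ± 0.17, adjusted p = 0.0392). PRIM1 had 745, 876 and 836 against 695, 681 and 605 with GSK3i, so that its BRCA2-deficient libraries were lower with both treatments (384, 379 and 396).

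A second interaction asked whether GSK3i changes the effect of BRCA2 depletion in cells that all received siβ-catenin, over 11 libraries. DESeq2 called 79 of 18002 genes (0.439%), 34 with a higher and 45 with a lower change under GSK3i, and 264 with the block. edgeR called 0, with 2807 at an unadjusted p below 0.05 (2895 in DESeq2). Leaving out 1 library of a group of 3 gave from 12 calls (without BRCA2-deficient siβ-catenin replicate 1) to 550 (without BRCA2-proficient GSK3i+siβ-catenin replicate 3). Of the 79 calls 55 remained among 63 without the doubtful GSK3i+siβ-catenin library. In that fit 1680 genes (9.38%) were at an unadjusted p below 0.05 in DESeq2, against 16.1% with all 11 libraries. A fit that also left out the BRCA2-proficient siβ-catenin library at 74.2% of the GSK3i scale had 1 library in that group. Its calls are therefore not counted here. BRCA2 itself was called (1.14 ± 0.30, adjusted p = 0.0412). Its level was 826 and 1111 against 86.6 to 109 without GSK3i and 585 to 669 against 108 to 167 with it.

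Of the 57 genes in the replication list, 9 were among the 34 with a higher change, of 18002 tested. Without the doubtful GSK3i+siβ-catenin library, 10 of the list were among 31 such genes, of 17923 tested. CDC6 lay between 2198 and 2246 normalised counts in BRCA2-proficient and between 505 and 614 in BRCA2-deficient cells with siβ-catenin alone, and between 1473 and 2251 against 1314 to 1499 with both. Its interaction was 1.5 ± 0.27 (adjusted p = 0.000215), and 1.34 without both libraries that stood apart on the GSK3i scale. The clamp loader RFC3 (1.11 ± 0.21, adjusted p = 0.000581) and the origin protein ORC1 (1.30 ± 0.26, adjusted p = 0.00134) followed, with MCM3, MCM4, MCM6, MCM10 and RFC5 at adjusted p between 0.0259 and 0.0498. In each of them the change with BRCA2 depletion was nearer to 0 under GSK3i. Of the genes with a lower change, C4orf48 rose by 2.56 with BRCA2 depletion under siβ-catenin alone and changed by 0.62 here (interaction -1.95 ± 0.34, adjusted p = 0.000127). The change here was called only without replicate 2 (0.84, adjusted p = 0.000802), or with the block. TMEM160 (-2.03), the prohormone convertase inhibitor PCSK1N (-2.19), the AP-1 subunit JUNB (-1.89) and the matrix genes MMP14 (-1.28), LOX (-1.85) and LOXL1 (-1.5) went the same way.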

How the data were processed

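The deposited table holds raw read counts per Ensembl gene for 22 poly(A) RNA-seq libraries of H1299 cells in 8 groups. To make these counts the authors aligned reads to GRCh37 with HISAT2 2.0.4, handled them with SAMtools 1.4 and Picard 1.9.2, and counted them with featureCounts 1.5.0, with versions as in the submitters' processing notes. The study's reporting summary gives other versions of HISAT2, Picard and featureCounts, so which were used is not settled. The Ensembl release and the strand setting are not given in the sources used here, so overlapping antisense genes, and genes with near-identical copies, are uncertain. Unique mapping and position-based handling of duplicates can lower counts of copied and of very abundant genes.

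Library totals were 18.9 to 29.3 M counts over 37908 genes. A symbol was matched for 28906 identifiers. DESeq2 1.42.0 under R 4.3.3 fitted each contrast to the libraries of the groups compared alone (median-of-ratios size factors, Wald test, two-sided, no shrinkage), after dropping genes with more than 3 libraries under 10 counts. For interactions, a gene needed 10 or more counts in 3 or more libraries. Calls needed a Benjamini-Hochberg adjusted p below 0.05 and a log2 change beyond 0.5. The alternative test was edgeR 4.0.16 (limma 3.58.1). Fits were tested on simulated counts with 200 genes changed by 1 on the log2 scale. In the main fit DESeq2 recovered 154 of them and edgeR 108, and 26 and 4 unchanged genes were called. DESeq2 recovered 107 in the interaction with siβ-catenin and 87 in that with GSK3i, and called 25 and 28 unchanged genes. edgeR recovered 51 and 22, and called 4 and 5 unchanged genes. Few calls in an interaction therefore do not show that few genes differ. Nor does a call by itself show that its gene differs, since unchanged genes were called in each of these fits. The GSK3i scale used log2 of normalised counts plus 1.

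The members and the 17 gene lists were chosen with earlier results of these data known. Genes named by rule were BRCA2 and CTNNB1, the 12 largest changes each way described in the report, up to 4 called genes per list by lowest adjusted p, 3 per direction and interaction, and 3 per direction called in only 1 of the 2 fits. Other list members, and genes of the interactions, were named by role after their values were seen. The labels number replicates alike in both groups. The deviations of same-numbered libraries from their group means correlated at 0.256, 0.132 and 0.254, so the numbers may pair the libraries, from the data and not from the labels. The main fits left pairing out, and the replicate block was an alternative. In that block, replicate 2 of the BRCA2-proficient cells is the library whose label is doubtful. Alternatives were the other test, TMM factors, other filters and criteria, the replicate block, a model over all groups and leaving out each library. Promoters and motifs came from RefSeq (GRCh38.p14). Figures were drawn with Python 3.11.15 and matplotlib 3.10.9. Some items were withheld and are not reported here.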

Additional observations from a re-analysis of the deposited data

Results flagged for a closer look

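Whether the effect of BRCA2 depletion differed between settings was put, gene by gene, to a test of the difference itself. Between GSK3i with siβ-catenin and GSK3i with control siRNA, DESeq2's interaction term called 1 gene, a processed pseudogene. Between siβ-catenin with and without GSK3i it called 79 of 18002 genes, among them 9 of the 57 in the replication list. edgeR called 0 in both, with 324 and 2807 genes at an unadjusted p below 0.05. In simulated counts DESeq2 recovered 53.5% and 43.5% of genes given an interaction of 1 on the log2 scale, and edgeR 25.5% and 11%. There DESeq2 also called 25 and 28 unchanged genes, and edgeR 4 and 5. The second set rests in part on BRCA2-proficient siβ-catenin libraries that stood at 74.2% and 30.1% of the GSK3i scale. Fits that left either out had 1 library in that group, so they cannot tell what part this has in the calls.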

How the results depend on the processing

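Replicate spread more than depth limited the calls, and DOX, the shRNA and BRCA2 loss stayed joined under every setting. Of the 1319 genes called (576 higher, 743 lower), edgeR called 483 (194 and 289), a DESeq2 test against a change of 0.5 called 78 (28 and 50), and replicates 2 and 3 of both groups alone, a setting added after seeing the data, called 598 (228 and 370). A model over all groups called 892 higher. Without the doubtful library edgeR called 893 genes, 472 of them lower, where DESeq2 called 1603. Leaving out 1 library at a time gave 748 to 1603 calls (265 to 806 higher, 483 to 797 lower). The lowest count was without BRCA2-deficient replicate 2, and the cause was not tested. The replicate block gave 1485. Beside the calls named with the results (PPL, GPER1, RABGGTB, TRIP13, HLA-B and CHAC1) and C4orf48, which passed the test with it (adjusted p = 0.0325), the block changed no call of a named gene. Calls lost with 1 library fewer rest on fewer samples.

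Of the mitotic genes, 28 were called by edgeR and 1 in the test against 0.5. The interaction with siβ-catenin under GSK3i (1 gene) gave 0 by edgeR, 0 with no filter, 4 with the replicate block and 0 to 11 when a library was left out. The interaction with GSK3i under siβ-catenin (79 genes) gave 0 by edgeR, 264 with the replicate block, 12 to 910 when a library was left out (181 without BRCA2-deficient siβ-catenin replicate 3, 550 without BRCA2-proficient GSK3i+siβ-catenin replicate 3, 178, 25 and 13 without the BRCA2-deficient ones) and 42 without both libraries that stood apart on the GSK3i scale. The calls shared with untreated cells, GSK3i and siβ-catenin were 166, 257 and 410 by edgeR, and 120 in all 4 settings. No result changed its direction while called. TMM factors gave 1314 calls. For single named genes, 36 values gained and 217 lost their call over all alternatives, and 1372 stayed on the same side of the threshold.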

Other observations

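Motifs of other lists were looked for in the same promoters, on both strands, as descriptions. The interferon-stimulated response element was in 19 of 30 interferon-stimulated members with a promoter entry (63.3%), against 3.65% of all promoters, while the list as a whole had a median change of -0.01 and 3 called genes. The antioxidant response element, TGACNNNGC, was in 5 of 19 NRF2 targets (26.3%), against 13.6%, and the genes called there had no promoter entry. The amino acid response element, TGATGNAAT, was in 0 of 34 ATF4 members, against 1.02%, which says only that these letters are not in these windows.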
